A study of Mus musculus with 61 samples.

Results

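The 8 genes described here, Mapt, App, Lrrk2, Pink1, Sod1, Prnp, Grn and Apoe, are genes in which human mutations or variants cause or favour Alzheimer's disease, Parkinson's disease, amyotrophic lateral sclerosis, frontotemporal dementia or prion disease. They were chosen by name. Each is measured with the array probe that a RefSeq accession assigns to it, and with its brightest probe where it has several. The 8 genes have 11 probes on the array, of 41174 probes in all, and they are 8 of 16358 genes named through RefSeq. Their levels were followed through the whole brain of the mouse, 1 mm at a time, and it was asked whether they are higher in the areas in which the diseases begin.

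The brains were those of 6 male C57BL/6J mice of 8 weeks, which carried no transgene and received no treatment, so that all levels are those of the healthy young adult. Every brain was cut completely in 1 plane, and each 200 consecutive sections of 5 µm were pooled into a fraction 1 mm wide. The sagittal series S and So had 9 and 10 fractions from left to right, the coronal series C and Co had 13 and 16 from posterior to anterior, and the horizontal series H and Ho had 6 and 7 from dorsal to ventral. So, Co and Ho were cut slightly obliquely. The study pairs 56 of the 61 fractions into 28 pairs, and the pairs are named here after the first fraction of each (c1 for C1 and its partner in Co, and likewise s and h). The 2 fractions of a pair come from different mice and served as replicates.

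Neurodegenerative diseases start in particular neurons although their genes are active in most cells. Alzheimer's disease begins in the hippocampal formation, the cortex and the locus coeruleus, Parkinson's disease affects the dopamine neurons of the substantia nigra and the noradrenaline neurons of the locus coeruleus, and amyotrophic lateral sclerosis affects the motor neurons of the cortex, brainstem and spinal cord. The proteins of these genes act in different places, since tau (Mapt) binds axonal microtubules, the kinases Lrrk2 and Pink1 act on vesicle traffic and on mitochondria, Sod1 removes superoxide, progranulin (Grn) serves lysosomes, and apolipoprotein E (Apoe) carries lipids released mainly by astrocytes.

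All values are levels on the log2 scale relative to the 75th percentile of the same array, so that 0 is that percentile and a difference of 1 is a doubling. On an array, 57.9% to 73.1% of the probes exceeded the background well, and no probe was saturated. The 61 arrays lay on 16 slides and were scanned on 5 days, and neighbouring fractions of a mouse mostly shared a slide. Astrocyte, oligodendrocyte, microglia and neuron markers were well above background on every array (7 of 7 measured genes in each list). The 2 mice of a plane and their pairing come from the study, and 1 array was made per fraction. Hoxb3, a gene of the hindbrain and spinal cord, was highest in C1 and Co2, and Tmem40, a marker of the olfactory bulb, in C13 and Co15. Of the other caudal genes examined, Hoxa5 was highest in C1 and Co2 too. Hoxc4 was highest in C11 and Co12, so it did not mark the posterior end. In bulk fractions, fewer cells of a type and less RNA per cell cannot be told apart.

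All 8 genes were well above background in 61 of 61 fractions. Lrrk2, the large kinase in which dominant mutations cause Parkinson's disease, had the widest range among their brightest probes, from -1.82 in C13 to 1.26 in C9, which is 8.43-fold. Grn followed with 7.73-fold, but with a break between mice that is described further on. The other 6 genes ranged from 1.91-fold (Prnp) to 3.07-fold (Mapt). Within 1 mouse, the range of Mapt was 0.19 in S, 0.25 in So, 0.23 in H and 0.21 in Ho, against 1.21 in C and 1.01 in Co.

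Variation over the 28 pairs was tested by a moderated F in limma, adjusted after Benjamini and Hochberg over all 36573 probes detected. Of the 8 genes, 6 varied, beside 61.1% of all probes. Each plane used other mice, mostly on other slides and scan days, so the F and the order of pairs mix these with position. Each series covers the whole brain, yet the mean of Mapt was 5.57 in S and 4.78 in H. Lrrk2 had the largest F (12, adjusted p = 1.1e-08), followed by Prnp (5.97, adjusted p = 1.61e-05) and App (5.43, adjusted p = 3.9e-05). Sod1 (adjusted p = 0.00321), Grn (0.0234) and Mapt (0.0443) also passed. Grn did not pass with the slide as a random block (0.0727) or as a fixed block (0.856). Pink1 (0.068) and Apoe (0.13) did not, and both passed when the mouse of each plane entered the fit as a block (0.0034 and 0.00281, with 31371 probes passing). Mapt was near the threshold and passed without 16 of the 56 arrays left out in turn but not without the other 40. Its adjusted p was 0.306 without the outermost pairs of each plane. These are values of the brightest probes. The other Grn probe varied too (F = 4.4, adjusted p = 0.000257), with an SD within pairs of 0.10 against 0.72 for the brightest. The second and the third Mapt probe had an adjusted p of 0.00902 and 0.0691.

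In Lrrk2 the pattern is a peak in the anterior forebrain and a fall at the olfactory bulb. In mouse C, its level was lowest at -1.82 in C13, had a median of 0.11 and was highest at 1.26 in C9, and in mouse Co the lowest, median and highest values were -1.70 in Co15, -0.14 and 0.83 in Co11. The pair with the highest mean was c10 (1.24 and 0.83) and the one with the lowest was c13 (-1.82 and -1.70), so that both mice show the same order at a difference of 2.79 between the means. Of the 27 steps between neighbours when the 28 pair means are put in order, 4 exceeded the SD within pairs (0.22), and most neighbouring pairs in that order are therefore not resolved. The drop from C11 to C12 was -1.83 on arrays of the same slide, and from Co13 to Co14 it was -1.14, also on the same slide.

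App encodes the precursor of the amyloid peptide. Its level in mouse C was 3.72 in C13, had a median of 4.64 and reached 4.85 in C8, and in mouse Co it was 3.43 in Co16, had a median of 4.35 and reached 4.57 in Co10. The lowest pair was again c13 (3.72 and 3.58), and the highest was h1 (4.75 and 4.87). Both mice thus show App lowest at the rostral end. Without c12 and c13, the pairs that hold the olfactory bulb, App no longer passed the test over the pairs (adjusted p = 0.0785).

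**Figure D1:**
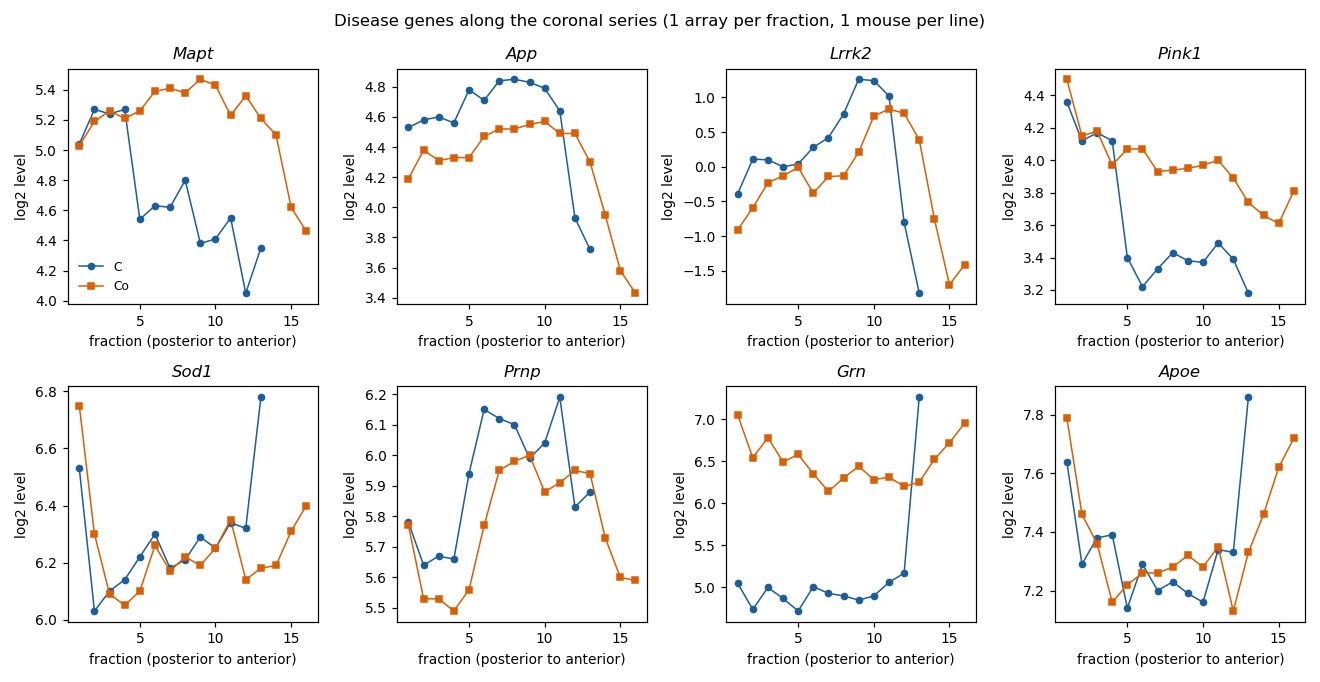
Level (log2, relative to the 75th percentile of the array) of each of the 8 genes in the coronal fractions, numbered from posterior to anterior, with 1 point per array and 1 line per mouse (C, 13 fractions; Co, 16 fractions). Lrrk2 and App fall at the rostral end in both mice, Sod1 and Apoe are highest in the end fractions, and Mapt, Pink1 and Grn break in mouse C but not in mouse Co.

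Prnp encodes the prion protein, a glycoprotein of the cell surface. Its highest pair was s9 (6.42 and 6.23), the outermost right fractions, and its lowest c3 (5.67 and 5.49), in the hindbrain of other mice. Between the ordered pair means, 0 of 27 steps exceeded the SD within pairs (0.10), so that neighbours in the order are not resolved. Sod1, the cytosolic superoxide dismutase mutated in familial amyotrophic lateral sclerosis, was highest in s9 (6.62 and 6.74) and lowest in c2 (6.03 and 6.09), with 0 of 27 steps above its SD of 0.12. Pink1, the mitochondrial kinase of recessive Parkinson's disease, had its highest mean in c1 (4.36 and 4.15) and its lowest in h3 (3.28 and 3.36), which lie in different planes. Apoe had its highest mean in c13 (7.86 and 7.62) and its lowest in h2 (7.01 and 7.38).

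Several of the genes stood out in the outermost fractions of a series, which hold the surface of the brain on one side. Of the 12 first and last fractions of the 6 mice, 10 had more Apoe than every inner fraction of the same mouse, 10 had more Grn, 9 more Sod1, 7 more Pink1 and 5 more Prnp. App showed the reverse, with 8 of 12 below every inner fraction and 2 above. Of the 10 counts of Grn, 1 is C13 (7.26, against 4.72 to 5.17 inside), across the break described further on. The other Grn probe exceeded the inner fractions at both ends of S, So, H and Ho, at 1 end of C and at 0 of Co. In mouse Ho, Apoe was 8.05 in the first and 7.77 in the last fraction, against 7.30 to 7.47 in the 5 inner fractions. Apoe in mouse S was the exception, with 7.69 and 7.64 against 7.60 to 7.72 inside. These counts are a description without a test, and the share of all probes with such counts was not taken. The 75th percentile used for scaling was lowest at an end in So (970.5), C (971.4), Co (1386) and Ho (761). In S it was lowest in S2 and S9 (965.5 each), and in H in H3 (1120). Its part in the counts was not tested.

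**Figure D2:**
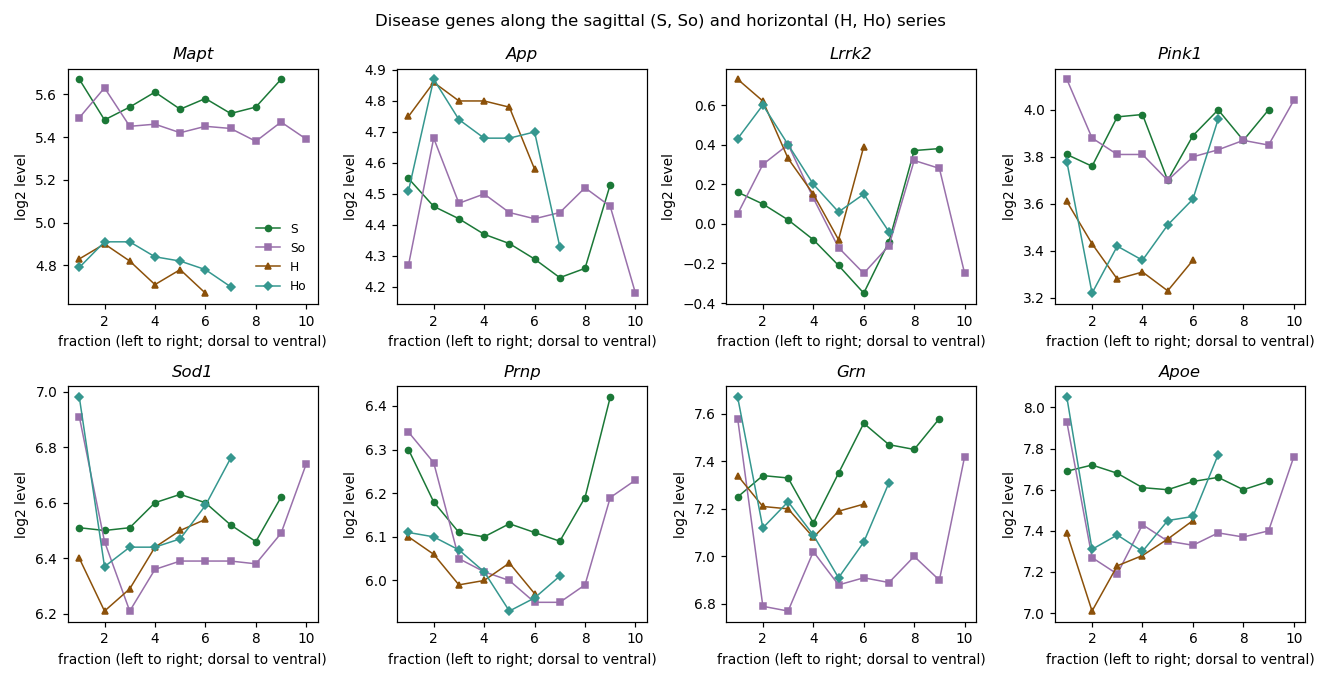
Level (log2, relative to the 75th percentile of the array) of each of the 8 genes in the sagittal series S and So, numbered from left to right, and in the horizontal series H and Ho, numbered from dorsal to ventral, with 1 point per array and 1 line per mouse. Lrrk2 dips in the middle of the sagittal series, to -0.35 in S6 and -0.25 in So6, which belong to different pairs. So10, at the right end, is at -0.25 too. Sod1, Grn and Apoe are raised at both ends of So and Ho.

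Along the body axes, the first question was which genes differ between the hindbrain and the rostral forebrain. The mean of pairs c1 to c4 minus that of c10 to c13 passed the test for 5 of the 8 genes, beside 47.5% of all probes. Of these, 3 were higher in the posterior fractions (27.1% of all probes were) and 2 were lower (20.4%). The median difference of all probes was 0.10 with scaling to the 75th percentile and -0.04 when arrays were scaled to their medians, and the split of higher to lower calls moved from 9927 and 7454 to 7083 and 10120, so differences of this contrast are best read against 0.10.

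Pink1 was higher posteriorly by 0.57 ± 0.13 (SE, adjusted p = 0.000396), or by 0.47 relative to all probes. In mouse C the 4 posterior fractions lay at 4.12 to 4.36 and the 4 anterior ones at 3.18 to 3.49, and in mouse Co the 4 posterior ones lay at 3.97 to 4.18 and the 4 anterior ones at 3.61 to 4.00. The groups do not overlap in C and overlap in Co.

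Mapt was higher posteriorly by 0.51 ± 0.16 (adjusted p = 0.0107), with 5.04 to 5.27 against 4.05 to 4.55 in mouse C and 5.19 to 5.26 against 4.62 to 5.36 in mouse Co. The difference was 0.86 in C and 0.15 in Co, and in Co the groups overlap. With scaling to the median it was 0.37 (adjusted p = 0.0612), and without C12 alone it was 0.38 (adjusted p = 0.0558). In mouse C both genes had their largest step between C4 and C5, where the slide changes (-0.73 for Mapt and -0.72 for Pink1). In mouse Co no step of that size occurred, and there Mapt was highest in Co9. The other 2 Mapt probes differed by 0.11 (adjusted p = 0.594) and 0.29 (adjusted p = 0.0172).

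App was higher posteriorly by 0.25 ± 0.08 (adjusted p = 0.00673), with 4.53 to 4.60 against 3.73 to 4.79 in mouse C and 4.31 to 4.38 against 3.58 to 4.49 in mouse Co. The anterior fractions span the posterior ones in both mice. With scaling to the median the difference was 0.11 (adjusted p = 0.268), and without c12 and c13 it turned to -0.15 (adjusted p = 0.203). Lrrk2 did not pass (0.01 ± 0.11, adjusted p = 0.954), and its anterior fractions ran from -1.82 to 1.24 in mouse C. Without c12 and c13 its posterior level was lower by 1.11 on the log2 scale (difference -1.11, adjusted p = 1.38e-07).

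Prnp was lower posteriorly (-0.28 ± 0.06, adjusted p = 8.62e-05), with 5.64 to 5.78 against 5.83 to 6.19 in mouse C and 5.49 to 5.56 against 5.59 to 5.95 in mouse Co. In both mice the groups do not overlap. Sod1 was lower posteriorly by less (-0.17 ± 0.06, adjusted p = 0.0316), with overlapping groups of 6.03 to 6.53 and 6.25 to 6.79 in C and of 6.05 to 6.30 and 6.14 to 6.35 in Co. It did not pass without c12 and c13 (-0.10, adjusted p = 0.259) or with the slide as a random block (-0.20, adjusted p = 0.0675), and it lost the call without any 1 of C2, C11, C12, C13 and the Co arrays of c1, c3, c4 and c10 (adjusted p up to 0.148). Apoe did not differ past the threshold (-0.04 ± 0.08, adjusted p = 0.701), and with scaling to the median it did (-0.18, adjusted p = 0.0475).

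With the slide as a fixed block in limma, 0 of the 8 genes passed, 0 did at an unadjusted p under 0.05, and 3585 of all probes passed. Slide and position along the axis cannot be told apart at the slide borders. Cell type markers moved with the same contrast, since 7 of 7 oligodendrocyte markers were higher posteriorly, with a summed level of 267 to 428 times the 75th percentile in the 8 posterior arrays against 97.2 to 209 in the 8 anterior ones. All 7 microglia markers were lower (8.19 to 16.6 against 18 to 28.2), 3 of 7 astrocyte markers were higher (149 to 174 against 61 to 133), and of 7 neuron markers 4 were higher and 1 was lower (172 to 196 against 113 to 191). All 4 measured choroid plexus markers were higher posteriorly, and of 4 blood and endothelium markers 1 was higher and 1 lower. All of these markers were well above background on every array, and their part in the differences of the disease genes was not tested.

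Between dorsal and ventral fractions, the mean of h1 and h2 minus that of h5 and h6, 1 of the 8 genes passed, beside 14.3% of all probes. Lrrk2 was higher dorsally by 0.48 ± 0.16 (adjusted p = 0.0349), with dorsal levels of 0.62 and 0.73 against ventral levels of -0.08 and 0.39 in mouse H, and of 0.40 and 0.60 against -0.04 and 0.15 in mouse Ho. The groups do not overlap in either mouse, and 5.91% of all probes were called higher and 8.37% lower. The call was lost without any 1 of H1, H2, H5 and the Ho arrays of h1 and h6 (adjusted p of 0.107, 0.161, 0.138, 0.0595 and 0.2). Sod1 did not pass (-0.24 ± 0.09, adjusted p = 0.0728), nor did Apoe (-0.24 ± 0.12, adjusted p = 0.206) or App (0.21 ± 0.11, adjusted p = 0.239). With the mouse as a block, these 3 genes passed as well (adjusted p of 0.0123, 0.0347 and 0.025), and 9945 probes did. Pink1 differed in direction between the mice, with 0.22 in H and -0.47 in Ho. The split of higher to lower calls was 2162 to 3062, and 3125 to 2257 with scaling to the median. Oligodendrocyte markers were lower dorsally in 7 of 7 genes (summed level 66.4 to 196 against 210 to 261), and 5 of 7 microglia markers were lower (15.3 to 21.6 against 19.4 to 28.9). All 4 choroid plexus markers were lower dorsally (median -1.57), as were 2 of 7 astrocyte markers, and of 7 neuron markers 3 were higher and 1 was lower. The part of these markers was not tested.

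Between lateral and medial fractions, the mean of s1, s2, s8 and s9 minus that of s4 to s6, 2 of the 8 genes passed, beside 19.6% of all probes, and both were higher laterally (9.27% of all probes were, and 10.3% were lower). Lrrk2 was higher by 0.40 ± 0.12 (adjusted p = 0.0148). In mouse S its 4 lateral fractions had 0.10 to 0.38 and its 3 medial ones -0.35 to -0.08, and in So the values were -0.25 to 0.40 and -0.25 to -0.11. The groups are separate in S, and in So the outermost right fraction was as low as the medial ones. Prnp was higher by 0.19 ± 0.06 (adjusted p = 0.0256), with 6.18 to 6.42 against 6.11 to 6.13 in S and 6.05 to 6.27 against 5.95 to 6.00 in So, and the groups do not overlap in either mouse. Without S9 neither gene passed, without S6 Lrrk2 did not (adjusted p = 0.0614), and without S2 or the So array of s4, s5 or s6 Prnp did not (adjusted p of 0.0601, 0.0779, 0.0999 and 0.0912). With normexp background correction and quantile normalization Prnp did not pass (0.07, adjusted p = 0.568). The split of calls was 3390 to 3781, and 6017 to 2540 with scaling to the median. All 7 oligodendrocyte markers were lower laterally (81.3 to 208 against 249 to 327), 5 of 7 microglia markers were higher, and their part was not tested.

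Between the left and the right side, s1 to s4 minus s6 to s9, 0 of the 8 genes passed limma's test, beside 0.148% of all probes (54 probes, 0.0383% higher and 0.109% lower on the left). At an unadjusted p under 0.05, 0 of the 8 genes and 2779 of all probes passed. Left and right fractions of both sagittal mice lay on different slides, so that side and slide cannot be told apart.

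**Figure D3:**
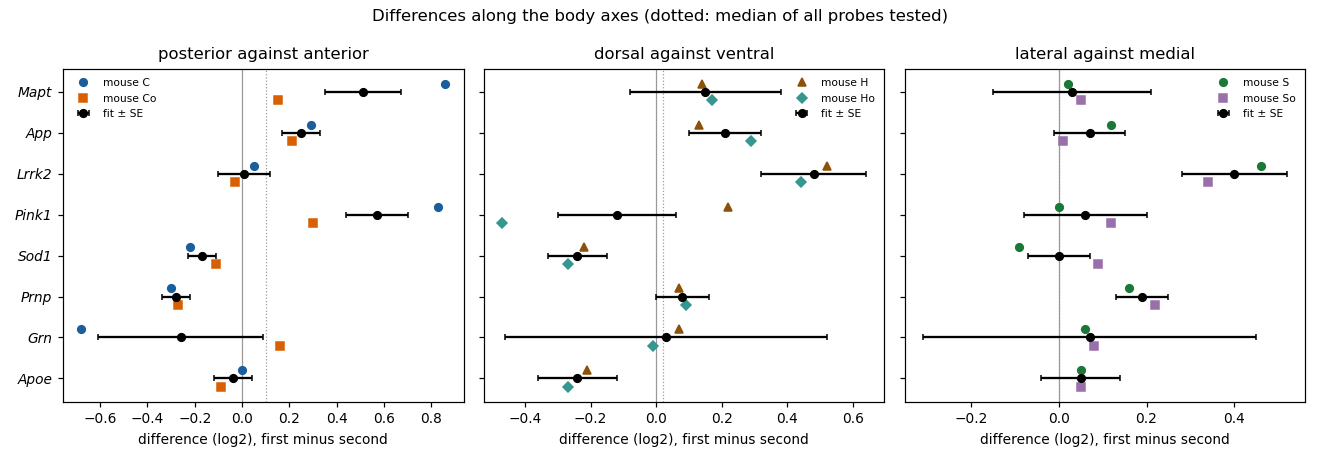
Differences (log2) of the 8 genes along the body axes, posterior minus anterior, dorsal minus ventral and lateral minus medial. Black points and bars are the estimates over the pairs with their SE, coloured symbols are the differences within each of the mice, the solid line marks 0 and the dotted line the median of all probes. Pink1 and Mapt differ most between posterior and anterior fractions in mouse C (0.83 and 0.86), and Lrrk2 is higher dorsally and laterally in all 4 mice.

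To ask whether the levels follow the vulnerable areas, areas were located by marker genes. For every mouse, the level of a disease gene in the fraction richest in the marker was set against the mean of the other fractions of that mouse. Myl4 was taken to mark the motor cortex, Spink8 Ammon's horn of the hippocampus and Slc6a3 (the dopamine transporter) the dopaminergic cells of the midbrain. Slc6a2 (the noradrenaline transporter) stood for the noradrenergic cells of the dorsal tegmentum. Prph stood for the cranial nerve nuclei, Slitrk6 for the mediodorsal thalamus and Bmp5 for the cerebellum. A fraction is a slab 1 mm wide through the whole brain and holds much besides the marked area. In the sagittal mice the Myl4 fraction was S9 and So2, at or next to the lateral edge, so that motor cortex names the marker only. The richest fraction exceeded the next by 0.09 to 0.43 for Myl4 and by 0.01 to 2.48 for Slc6a2. Several areas fell on the same array. The Myl4 and the Spink8 fraction were the same array in So, H and Ho, and in H it was the Bmp5 fraction too. H4 was the fraction of Slitrk6, Slc6a3 and Slc6a2, Ho5 that of Slitrk6 and Slc6a2, S5 that of Slitrk6 and Prph, and C4 that of Slc6a2 and Prph. The Tph2 fraction (raphe nuclei) was that of Slitrk6 in S5 and So6, of Slc6a2 in Co6 and of Dsp (dentate gyrus) in H3. The Dsp fraction was that of Spink8 in C7 and Co8. Areas that share arrays are not independent of each other.

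Of 18 combinations of a gene with an area vulnerable in its disease, 1 passed limma's test over the 6 mice. App was higher in the Myl4 fraction by 0.19 ± 0.08 (SD, n = 6 mice, adjusted p = 0.0429), where 17% of all probes were called, 2904 higher and 3325 lower, or 5863 and 1927 with scaling to the median. Its differences had a lowest value of 0.08, a median of 0.20 and a highest of 0.27, and they were above 0 in 6 of 6 mice (exact two-sided sign-flip permutation test, p = 0.0312, the smallest that 6 mice allow). Leaving out any 1 mouse lost the call (adjusted p of 0.0547 to 0.127), as did normexp background correction and quantile normalization (0.08, adjusted p = 0.359). In the same fraction 6 of 7 oligodendrocyte markers were lower (median -0.57), 4 of 7 astrocyte markers were lower (median -0.36), 4 of 7 neuron markers were higher (median 0.18) and 0 of 7 microglia markers passed (median 0.08), and their part was not tested.

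App was also higher in the Spink8 fraction in 6 of 6 mice, by 0.22 ± 0.09 and with values from 0.09 to 0.30, but did not pass (adjusted p = 0.0593, exact p = 0.0312, 4.66% of all probes called). In the Slc6a2 fraction App differed by 0.03 ± 0.10, with 3 mice above and 3 below 0 (adjusted p = 0.766, 2.35% of all probes called). Mapt was 0.09 ± 0.13 higher in the Myl4 fraction (5 of 6 mice, adjusted p = 0.338), 0.08 ± 0.14 in the Spink8 fraction (4 of 6, adjusted p = 0.481) and 0.12 ± 0.26 in the Slc6a2 fraction (4 of 6, adjusted p = 0.545). The last value holds 0.61 in mouse C, whose Slc6a2 fraction is C4, the last fraction before the slide border named above. Mean differences for Mapt therefore lay within the spread of the mice.

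Apoe, whose variants alter the risk of Alzheimer's disease, lay on the other side of 0, with -0.18 ± 0.14 in the Myl4 fraction (at or below 0 in 6 of 6 mice, from -0.33 to -0.00, adjusted p = 0.105, exact p = 0.0312) and -0.16 ± 0.14 in the Spink8 fraction (below 0 in 5 of 6, adjusted p = 0.188). Neither passed. With scaling to the median, Apoe was at -0.07 (Myl4, adjusted p = 0.576) and -0.09 (Spink8, adjusted p = 0.458). Among probes well above background on all arrays, the Myl4 difference passed (-0.18, adjusted p = 0.0487). Apoe was below 0 in 6 of 6 mice in areas outside its list as well. The means were -0.14 in the Dsp fraction (dentate gyrus), -0.15 in the Tph2 fraction (raphe nuclei) and -0.08 in the Slitrk6 fraction. The other fractions mostly include the ends of the series, and 10 of 12 ends had more Apoe than every inner fraction. Their part in these differences was not tested. Grn in the Myl4 fraction differed by -0.08 ± 0.19 (adjusted p = 0.502).

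Neither Parkinson gene passed the test in the fractions of the vulnerable neurons. In the Slc6a3 fraction, where 0.0875% of all probes passed, Lrrk2 differed by -0.09 ± 0.15 (from -0.25 to 0.11, 2 of 6 mice above 0, adjusted p = 0.549) and Pink1 by -0.07 ± 0.19 (from -0.43 to 0.11, adjusted p = 0.718). In the Slc6a2 fraction Lrrk2 was below 0 in 6 of 6 mice, by -0.25 ± 0.10 and from -0.43 to -0.18, without passing (adjusted p = 0.069, exact p = 0.0312), and Pink1 differed by 0.06 ± 0.26 (adjusted p = 0.773). Lrrk2 was below 0 in 6 of 6 mice in the Tph2 fraction too, which is not in its list (-0.18, exact p = 0.0312). Set against the Myl4 fraction of the same mouse, Lrrk2 was lower in the Slc6a3 fraction (-0.58, adjusted p = 0.0111, 4791 of 36573 probes called) and in the Slc6a2 fraction (-0.72, adjusted p = 0.0159, 4979 probes called). It was also lower in the Slitrk6 (-0.50, adjusted p = 0.00651, 4295 probes called) and the Tph2 fraction (-0.66, adjusted p = 0.0238, 6860 probes called), which are not in its list. The Myl4 fraction was itself high in Lrrk2, by 0.56 over the other fractions (adjusted p = 0.0319). These differences contain that rise, so they do not by themselves show a low level in the marked areas.

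Sod1 differed by -0.08 ± 0.14 in the Myl4 fraction (adjusted p = 0.455) and by 0.12 ± 0.25 in the Prph fraction, which holds motor nuclei (4 of 6 mice above 0, adjusted p = 0.645, 0.0465% of all probes called). Prnp was higher in the Myl4 fraction in 6 of 6 mice, by 0.18 ± 0.10 and from 0.03 to 0.29 (adjusted p = 0.0694, exact p = 0.0312). It passed with scaling to the median (0.29, adjusted p = 0.0302). In the Slitrk6 fraction it differed by 0.01 ± 0.17 (adjusted p = 0.95, 1.42% of all probes called) and in the Bmp5 fraction by -0.09 ± 0.15 (adjusted p = 0.519, 0.107% called).

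Over all 88 combinations of the 8 genes with 11 areas, 2 passed, and the other was outside the vulnerable list. In 6 of the 88 all mice lay above 0, and in 15 all lay below. The share of all probes with 1 sign in all 6 mice was not taken. Most of the 15 were of Apoe, Sod1, Grn and Pink1, which were often high in the end fractions, and the part of those fractions was not tested. In the areas not named above, 0.325% of all probes passed in the Dsp fraction, 0.227% in the Tph2 fraction and 0% in the Chat and Ppp1r1b fractions (cholinergic cells and striatum). Lrrk2 was higher in the Myl4 fraction by 0.56 ± 0.34 (1.47-fold, from 0.25 to 1.05, 6 of 6 mice, adjusted p = 0.0319), and the call held without mouse H (adjusted p = 0.0421) and was lost without any 1 of the other 5 mice (adjusted p up to 0.0828). Its differences in the Ppp1r1b fraction ran from -0.13 to 1.18 with a mean of 0.48 ± 0.55 (5 of 6 mice above 0, adjusted p = 0.451).

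**Figure D4:**
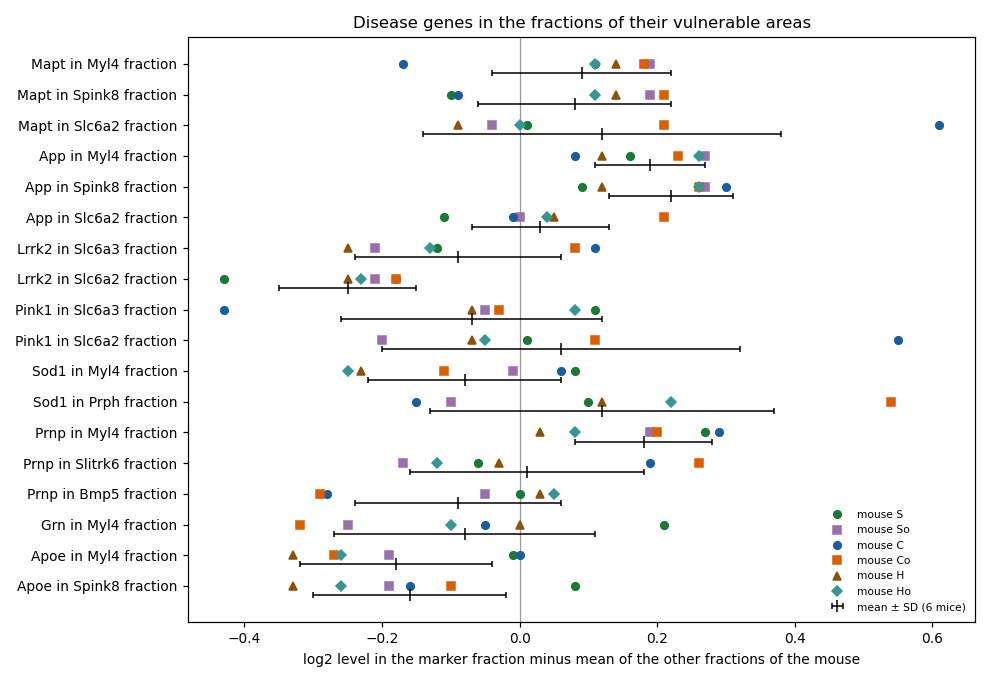
Level (log2) of a gene in the fraction with the highest marker minus its mean in the other fractions of the same mouse, for the 18 combinations of a gene with an area vulnerable in its disease. Coloured symbols are the 6 mice, and black ticks and bars the mean and SD over them. All mice lie above 0 for App in the Myl4 and Spink8 fractions and for Prnp in the Myl4 fraction, and all lie below 0 for Lrrk2 in the Slc6a2 fraction.

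The mice of a plane differed for 8 of the 8 genes (limma's F over 3 differences between mice, pairs included in the fit, 62.8% of all probes), and the difference was greatest in Grn (F = 45.4, adjusted p = 2.15e-09), where Co was above C by 1.32. Sod1 did not pass with scaling to the median (adjusted p = 0.0713) or with the authors' table (0.104), nor Apoe with normexp and quantile normalization (0.217). The brightest Grn probe had 4.72 to 5.17 on the 12 arrays of C1 to C12 and 6.14 to 7.67 on the other 49, and the groups do not overlap. C13, of the same mouse but on another slide and scan day, had 7.26. The other Grn probe had 1.82 to 2.45 on these 12 arrays and 2.04 to 2.70 on the others, which overlap. Of all probes, 0.662% (242) were likewise lower on each of these 12 arrays than on any other, and 482 were higher. For 23 probes the gap was at least the 0.97 of Grn. Scan day 4 held only these 12 arrays, so that its part cannot be told apart from that of the mouse and the slides.

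Because of this break, Grn is best read within a mouse. In Co its brightest probe was at 7.05 in Co1, 6.14 in Co7 and 6.95 in Co16, and the posterior minus anterior difference was 0.16 in Co and -0.68 in C, which includes C13. The other probe was lower posteriorly in both mice, by -0.49 in C (1.82 to 2.01 against 2.21 to 2.68) and -0.38 in Co (2.04 to 2.18 against 2.36 to 2.63), with an estimate of -0.44 ± 0.06 (adjusted p = 1.37e-07). With the slide as a fixed block it was -0.31 (adjusted p = 0.265). The probes of Grn thus give different answers for this contrast, and their mouse-centred levels correlated with r = 0.41 over the 61 fractions. For Mapt, Co minus C was 0.55 with the brightest probe, -0.53 with the next and 0.36 with the third.

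**Figure D5:**
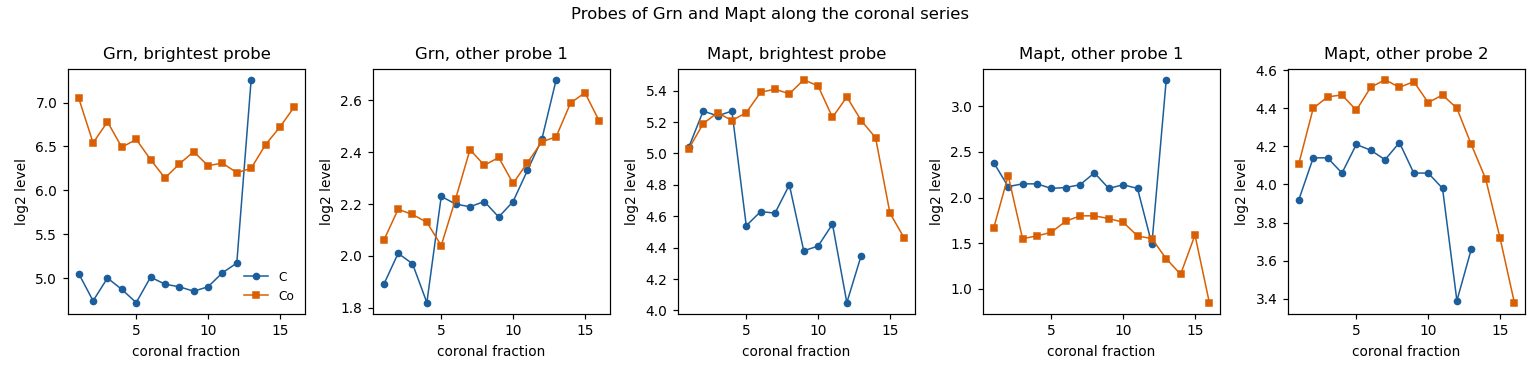
Level (log2) of both Grn probes and the 3 Mapt probes in the coronal series C and Co, with 1 point per array. The brightest Grn probe jumps by 2.09 between C12 and C13, which lie on different slides, and the brightest Mapt probe has a step of -0.73 between C4 and C5, where the slide changes too. The other probe of Grn has no such jump at C13.

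The profiles of the members were compared by Pearson's r over the 61 fractions after the mean of each mouse was subtracted. Fractions of 1 mouse and slide are not independent, and every array contributes its own scaling, so r is a description only. Sod1 and Apoe were most alike (r = 0.86, and 0.83 without the subtraction), followed by App and Lrrk2 (0.80), Grn and Apoe (0.71) and Sod1 and Grn (0.68). App ran opposite to Grn (-0.67, and -0.25 without the subtraction) and to Apoe (-0.66, and -0.53). Without the subtraction r was 0.81 for App and Lrrk2, 0.52 for Grn and Apoe and 0.61 for Sod1 and Grn. Grn stands here for its brightest probe, with the step of 2.09 between C12 and C13. Sod1, Grn and Apoe are also the genes most often high in the outer fractions, and App the one most often low.

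Among all genes well above background on every array, those most like Lrrk2 were Plec (r = 0.92), Cyfip2 (0.92) and Epor (0.91), and those most like App were Abcc5 (0.95), Hspa12a (0.95) and Synj2 (0.93). Mapt was most like Hbs1l (0.85), Dnm1l (0.85), a dynamin of mitochondrial division, and Ube2v2 (0.84), and Pink1 was most like the proteasome subunit gene Psmc5 (0.90), Gm14325 (0.88) and Ttc1 (0.87). Sod1 was most like the proteasome gene Psmb1, Nudt8 and the respiratory chain gene Cox5b (0.93 each). Prnp was most like Ube2e2 (0.94), Stmn1 (0.94) and Khdrbs3 (0.93). Apoe was most like the ribosomal protein genes Rpl37a (0.94), Rps3 (0.93) and Rpl7a (0.93). Grn was most like the histone genes H4c1 (0.92) and H4c4 (0.91) and Ccs (0.91), the copper chaperone of Sod1, and these values include the step of 2.09 between C12 and C13. Against the cell type markers, Sod1 had a median r of 0.74 with the 7 microglia markers (0.45 to 0.77) and 0.36 with the astrocyte markers (-0.25 to 0.55). Apoe had medians of 0.64 with the microglia markers (0.31 to 0.67), 0.54 with the blood and endothelium markers (0.24 to 0.70) and 0.41 with the astrocyte markers (0.07 to 0.64). App had a median of 0.42 with the oligodendrocyte markers (0.21 to 0.55) and with the neuron markers (0.02 to 0.76). With the microglia markers the median of App was -0.46 (-0.49 to -0.11), and with the blood and endothelium markers -0.53 (-0.78 to -0.21).

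The promoters of Sod1 and Grn are shown because these genes were often high in the outer fractions, for Grn with the limits given above. Apoe was too, and its 3 windows are not printed. The windows are the 250 bases before the start of the gene in RefSeq (GRCm38.p6), from 5′ to 3′ on the strand of the gene, with GC boxes (GGGCGG or CCGCCC, overlapping matches counted separately) in capitals.
Sod1, chr16:90220512-90220761, plus strand: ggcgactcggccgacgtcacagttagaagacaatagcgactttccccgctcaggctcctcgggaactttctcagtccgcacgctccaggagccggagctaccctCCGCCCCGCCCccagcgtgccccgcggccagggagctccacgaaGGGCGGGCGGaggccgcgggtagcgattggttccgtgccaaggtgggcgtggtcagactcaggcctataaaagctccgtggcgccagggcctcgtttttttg
Grn, chr11:102430257-102430506, plus strand: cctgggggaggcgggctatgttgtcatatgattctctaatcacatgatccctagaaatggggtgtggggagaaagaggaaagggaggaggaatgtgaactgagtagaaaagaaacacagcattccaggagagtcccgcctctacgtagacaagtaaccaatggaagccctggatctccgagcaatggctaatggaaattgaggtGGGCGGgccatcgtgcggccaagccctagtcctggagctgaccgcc
Sod1 has 4 GC boxes and 1 match to TATAAA, and Grn has 1 and 0. A GC box is held by 32.7% of 32851 mouse promoter windows and TATAAA by 12.4%. Promoter windows were matched for 7 of the 8 genes, and a GC box is in those of App (1), Lrrk2 (2), Pink1 (1) and Prnp (2) as well, and in 0 of the 3 windows of Apoe. These matches describe letters only. In the same build Mapt lies on chromosome 11 (104229409 to 104332090), App on 16 (84952666 to 85175255), Lrrk2 on 15 (91672791 to 91816124), Pink1 on 4 (138313409 to 138326296), Prnp on 2 (131909928 to 131938436) and Apoe on 7 (19696244 to 19701310).

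Genes that work with the members were examined as lists. Of 13 measured amyloid and Alzheimer risk genes, 8 varied over the pairs (61.1% of all probes did), and 5 were higher and 2 lower posteriorly, with a median difference of 0.14 beside 0.10 for all probes. Trem2, a receptor of microglia, had the largest F (16.8, adjusted p = 2.54e-10), with 1.09 in C2 and 3.37 in Ho1, and was lower posteriorly (-1.17). The App homolog Aplp1 (F = 8.92), the lipid transporter Abca7 (8.32) and clusterin, Clu (4.98), followed. Of the secretases, which cut App, Bace1 (adjusted p = 0.767), Ncstn (0.997), Adam10 (1) and Psen2 (0.0804) did not vary past the threshold, while the gamma-secretase subunit genes Aph1a (F = 3.94, adjusted p = 0.000631) and Psenen (3.28, adjusted p = 0.00258) varied. Bin1 did not pass (0.376).

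Of 12 further Parkinson genes, 8 varied, beside 61.1% of all probes. Among them were Fbxo7 (F = 6.55), the neuronal ubiquitin hydrolase Uchl1 (5.94) and the mitochondrial protease Htra2 (3.77), and Pla2g6 (adjusted p = 0.055), Park7 (0.118) and Gigyf2 (0.97) did not pass. In the list, 1 gene was higher and 4 were lower posteriorly (median -0.00), beside 27.1% and 20.4% of all probes.

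Of 13 genes of motor neuron disease and frontotemporal dementia, 9 varied, again beside 61.1%. Sort1, the sortilin receptor that takes up progranulin, was among them (F = 6.61). It was lower posteriorly (-0.82, adjusted p = 1.96e-07), and higher dorsally (0.56, adjusted p = 0.0113), laterally (0.58, adjusted p = 0.000425) and in the Myl4 fraction (0.53, adjusted p = 0.00759). Chmp2b (F = 4.83) and Vapb (4.06) followed, and Tardbp (adjusted p = 0.118), Vcp (0.768) and Tmem106b (0.989) did not pass. Posteriorly, 2 genes of the list were higher and 3 lower (median -0.05), beside the same 27.1% and 20.4%.

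Of 4 measured genes of other microtubule-associated proteins, Map6 (F = 6.75) and Map4 (6.2) varied, and Map1b (adjusted p = 0.0786) and Map2 (0.135) did not pass. All 6 lipoprotein genes varied, as did 61.1% of all probes. Apod (F = 16.7) had 1.00 in So2 and 5.38 in Co16, and Abca1 (16.3), Lcat (14.7) and Apoc1 (4.34), which lies beside Apoe, followed. In the Myl4 fraction 3 of the 6 were lower, with a median of -0.39, where 3325 of 36573 probes were lower. Among them were Apod (-0.99, adjusted p = 0.00633) and Apoc1 (-1.29, adjusted p = 0.00493). Both homologs of Prnp varied, and Sprn, which encodes Shadoo, did so most (F = 77.9, adjusted p = 2.49e-18), from 0.36 in C1 to 3.96 in So2. Like Prnp it was lower posteriorly (-2.02, adjusted p = 3.03e-20) and higher laterally (0.86, adjusted p = 1.6e-09).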

How the data were processed

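Total RNA of each fraction was labelled with Cy3 and hybridised to 1 Agilent 1-colour array, and per the file headers the deposited intensities come from Feature Extraction 9.1.3.1. The authors also deposited a table of linear intensity values for 36558 probes, normalized per array in GeneSpring GX, which was used as an alternative. Here the processed signal of each spot was put on the log2 scale, spots of a probe were averaged, and the 75th percentile of each array was subtracted. Probes well above background on at least 1 array were tested (36573 of 41174). Of these, 22323 were so on all 61. The number of arrays limits the precision, and the median SD between spots of a probe was 0.0652. No per-sample column was left unmapped (0).

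Analyses used R 4.3.3 with limma 3.58.1 and Python 3.11.15. The pairs, c1 to c13, s1 to s9 and h1 to h6, follow the study's own table. The S fractions, labelled 2 to 10, are numbered 1 to 9 here. The 5 fractions outside the pairs (So1, Ho1, Co1, Co13 and Co16) entered only the values by mouse, the areas and the correlations. Limma's moderated F test over the pairs had 28 residual degrees of freedom, and contrasts came from the same fit. In marker-defined areas limma's intercept over 6 mice was used, with an exact two-sided sign-flip test per gene. Calls are at an adjusted p under 0.05 (Benjamini-Hochberg over all probes tested). In the areas, p-values measure the spread over the 6 mice. For the F test and the contrasts they measure the spread within pairs, with 1 mouse on each side of a pair. Fractions cut from the same mouse were treated there as independent, so the 28 residual degrees of freedom count fractions and not mice. The mouse block rests on the mouse number in the labels. Deviations from the pair means correlated with a median r of 0.278 within a mouse (129 combinations, 115 above 0.1). The fractions of a mouse are therefore not independent, and p-values of the F test and the contrasts may be too small as statements about other mice.

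Alternatives were scaling to the median, normexp background correction (offset 50) with quantile normalization on the median spot and background signals, the authors' table, other probe filters, blocks for mouse and slide, other definitions of a marked fraction, and the omission of single arrays or mice. The slide as a fixed block, the omission of outer and of olfactory bulb pairs, and the other probes in the contrasts were added after seeing the data. The genes, gene lists, areas and contrasts were chosen with earlier results of these data known. Named are the 8 genes, the 3 genes most like each of them, the 4 genes of each related list with the largest F, every list gene that did not pass, and the area markers, except that some list genes are counted but not reported here by name. The tests were run on simulated data with independent noise on every array. That check cannot show their error rate where fractions of a mouse or slide are correlated, as they are here.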

Additional observations from a re-analysis of the deposited data

Results flagged for a closer look

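Of the 88 differences between a marked fraction and the rest of the brain, 9 had 1 mouse far from the other 5 by Dixon's criterion, which chance meets in about 1 in 20 groups. Mouse C (mouse 3) was that mouse in 7 of them. It had -0.17 for Mapt in the Myl4 fraction (others 0.11 to 0.19), -0.43 for Pink1 in the Slc6a3 fraction (others -0.07 to 0.11), -0.25 for Pink1 in the Ppp1r1b fraction (others -0.02 to 0.08) and -0.43 for Grn in the Tph2 fraction (others -0.16 to -0.00). It had 0.61 for Mapt in the Prph fraction (others -0.17 to -0.00), 0.58 for Mapt in the Bmp5 fraction (others -0.10 to 0.14) and 0.61 for Pink1 in the Bmp5 fraction (others -0.15 to 0.07). The Bmp5 and Prph fractions of this mouse, C3 and C4, lie before the step between C4 and C5 at which both genes had their largest change in this mouse and the slide changes, and the Slc6a3, Ppp1r1b and Myl4 fractions (C6, C9 and C11) lie behind it. Mouse S (mouse 1) stood apart in the Slc6a2 fraction for Lrrk2 (-0.43, others -0.25 to -0.18) and Grn (0.19, others -0.34 to -0.15).

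Pink1 was higher in the dorsal than in the ventral fractions of mouse H (0.22, with 3.43 and 3.61 against 3.23 and 3.36) and lower in those of mouse Ho (-0.47, with 3.22 and 3.42 against 3.62 and 3.96), without overlap in either. The difference between the mice was not tested.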

How the results depend on the processing

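Of 1683 values of single genes under an alternative, 1532 stayed on their side of the threshold (values without a call could change sign), 113 lost a call, 35 gained one and 3 reversed. The reversals concern posterior against anterior fractions, where Lrrk2 was at -0.41 without the outer pairs and at -1.11 without c12 and c13, and App at -0.15 without c12 and c13. With only probes well above background on all arrays, 14778 of 22323 probes varied over the pairs. When fractions of the same number were paired, 1 of the 8 genes did, beside 15237 of 36573 probes. With the slide as a fixed block, 0 of the 8 genes (0 at an unadjusted p under 0.05) and 3585 probes differed between posterior and anterior and 0 (also 0 unadjusted) and 1599 between dorsal and ventral fractions, and the lateral and left contrasts could not be fitted because slides coincide with sides. Without c12 and c13, 3 genes and 16554 probes differed between posterior and anterior. Dorsal against ventral, limma called 0 genes and 4406 probes with normexp (3 genes unadjusted). It called 2 genes and 4502 probes among those well above background on all arrays, and 2 genes and 5468 probes with the slide as a random block. Without the outer pairs it called 0 genes (1 unadjusted) and 1968 probes. Lateral against medial, it called 1 gene and 6485 probes with normexp, and 1 gene and 3691 probes without the outer pairs. Left against right, 23 probes passed among those well above background on all arrays, 0 with the slide as a random block (385 unadjusted) and 25 without the outer pairs.

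With the mouse of a plane as a replicate block, 4 genes and 9945 probes differed between dorsal and ventral, 12182 probes between lateral and medial, and 565 between left and right. The block changed no other count of calls by over 1.5 times.

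Of the 18 vulnerable combinations, 2 passed with scaling to the median, 2 with normexp, 2 with the authors' table, 5 among probes well above background on all arrays, 0 (6 unadjusted) with all fractions at 80% of the marker's maximum, and of the 12 outside Myl4 2 passed against the Myl4 fraction. Of the 88, 4 passed with normexp, 7 among probes well above background on all arrays and 1 at 80%. Against the Myl4 fraction, in which Lrrk2 was itself high, 4 passed, all of Lrrk2. The correlation of Sod1 and Apoe was 0.83 without subtraction of the mouse mean. With 1 array left out, 5 to 7 genes were called over the pairs (21538 to 22730 probes). For posterior against anterior 3 to 5 were called (3 without C12, 16413 to 17462 probes). For dorsal against ventral it was 0 to 2 (3205 to 5095 probes, with 3205 without H2). For lateral against medial it was 0 to 2 (0 without S9, 5632 to 7365 probes). For left against right 49 to 279 probes passed (279 without S3). With 1 mouse left out, 0 of 18 (4 to 6 unadjusted) and 0 to 1 of 88 area combinations passed. The causes were not tested.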
